A study of Mus musculus with 23 samples.

Results

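Long beta-chain loops were taken as the TRB clonotypes whose CDR3 amino acid sequence held 16 or more residues. Entries were told apart by V segment, J segment and CDR3, each distinct one being a clonotype, and those with an unresolved residue or without a leading cysteine were set aside. There were 4864 such clonotypes among 35068 TRB clonotypes (13.9%), and the 30204 others had 15 residues or fewer. The length was the only property used to choose them, and neither clone size nor recurrence entered the rule. Segment use was partly tied to it, since the V and J segments bring residues that count toward the length, and a longer loop also has more places for a D-encoded residue or motif.

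The libraries came from RNA of a syngeneic mouse melanoma model grown from an Nras Q61R line that had been exposed to ultraviolet radiation, and every group shared that model. There were 6 libraries with trametinib plus BGB-283 (combination), 6 with trametinib, an inhibitor of the kinase MEK, 6 with BGB-283, which inhibits RAF kinases, and 5 with no drug (control). Each treatment was sampled at D11 and D4 with 3 libraries a group, except 2 in control D11. The labels give neither the starting point of the day count nor the age of the mice. They do not state that each library is a separate animal either, and p-values then cover the spread between these libraries alone, which may be technical. T cells in such a library are those of the sampled tissue, and fewer T cells and less receptor RNA per cell cannot be told apart. TRB counts per library ran from 32480 to 320122, TRB clonotypes from 206 to 5132 and long clonotypes from 21 to 624. Counts were lowest in control D11 replicate 1 and both numbers of clonotypes in control D4 replicate 1. Counts look like reads rather than molecules, so the intervals given cover counting error only.

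The CDR3 of the T cell receptor beta chain is the loop in which the V, D and J segments are joined, and it is the part that most often contacts the peptide held by an MHC molecule. Its length is set by how many bases of each segment end are trimmed, by how much of the D segment is kept and by the bases that terminal deoxynucleotidyl transferase adds without a template. Loops that need few added bases are made over and over in different animals and are called public.

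Length fell off steeply at the upper end. Of the long loops, 3569 had 16 residues (73.4%), 1031 had 17 (21.2%), 200 had 18, 52 had 19 and 12 had 20 or more. Just outside the threshold, 7673 clonotypes had 15 residues (21.9% of all TRB clonotypes), against 10.2% with 16 just inside it. Nearly all long loops ended in the phenylalanine that closes a CDR3 (99.2%, against 98.6% of other loops), and 76.8% of them began with CASS, against 74.6% of other loops. The ends of all 12 TRBJ segments and the starts of the 13 TRBV segments tested below are shown here, since segments differ in how many residues they bring to the loop. Each is the longest run of residues, read from the deposited table, that at least 50% of the clonotypes of a segment carried at that end.

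TRBJ1-1 end: TEVFF
TRBJ1-2 end: NSDYTF
TRBJ1-3 end: SGNTLYF
TRBJ1-4 end: NERLFF
TRBJ1-5 end: NQAPLF
TRBJ1-6 end: YNSPLYF
TRBJ2-1 end: YAEQFF
TRBJ2-2 end: NTGQLYF
TRBJ2-3 end: AETLYF
TRBJ2-4 end: QNTLYF
TRBJ2-5 end: QDTQYF
TRBJ2-7 end: YEQYF
TRBV1 start: CTCSA
TRBV2 and TRBV5 start: CASSQ
TRBV13-2 start: CASGD
TRBV17 start: CASSR
TRBV3, TRBV12-1, TRBV12-2, TRBV13-3, TRBV15, TRBV16, TRBV19 and TRBV29 start: CASS

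Long loops used other J segments than the remaining loops of the same library. J segments form the end of the CDR3, so part of this difference follows from choosing loops by length, and the tests on segments give its size. TRBJ2-7, the commonest J segment of other loops, took 5.94% ± 2.73 of long clonotypes against 22.4% ± 1.73 of other clonotypes (SD, n = 23 libraries). TRBJ2-3 took 19.7% ± 5.38 of long clonotypes against 8.12% ± 1.33 of the others. In edgeR's quasi-likelihood test on numbers of clonotypes, with the library as a block, 10 of 11 TRBJ segments tested differed (90.9%), 6 higher in long loops (54.5%) and 4 lower (36.4%). With so many segments past the threshold, passing says little about any one of them, so the sizes are given. Shares within a class sum to a whole, so a shift in a common segment also moves the rest.

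TRBJ2-7, TRBJ1-1, TRBJ1-2 and TRBJ2-5 were lower in long loops. TRBJ2-7 had a lowest, median and highest share of 0%, 6.20% and 10.6% of long clonotypes against 16.4%, 22.6% and 24.4% of other clonotypes, so the ranges did not overlap (log2 -1.82 ± 0.09 SE, adjusted p = 6.09e-25, edgeR). TRBJ1-1 followed with 0%, 2.50% and 10.4% against 7.76%, 10.1% and 12.9% (log2 -1.79, adjusted p = 1.11e-15, edgeR), and 22 of 23 libraries had a long share below the lowest other share. TRBJ1-2 stood at 1.60% ± 1.61 of long clonotypes against 5.16% ± 1.02 of others (log2 -1.79, adjusted p = 1.91e-13, edgeR). TRBJ2-5 was lower by less (log2 -0.28, adjusted p = 0.00141, edgeR), and this call ended with counts under 20 removed (-0.15) or with long loops taken as 17 or more residues (-0.17).

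Higher in long loops were TRBJ2-3, TRBJ2-2, TRBJ1-6, TRBJ2-4, TRBJ2-1 and TRBJ1-4. TRBJ2-3 had a lowest, median and highest share of 12.7%, 18.5% and 38.1% of long clonotypes against 5.41%, 8.08% and 11.6% of others, again without overlap (log2 1.21 ± 0.08 SE, adjusted p = 9.24e-21, edgeR). TRBJ2-2 had 1.79%, 9.97% and 27.7% against 2.70%, 4.47% and 5.38% (log2 1.26, adjusted p = 4.17e-15, edgeR), with 21 of 23 libraries above the highest other share. The highest TRBJ2-2 value was that of BGB-283 D11 replicate 3, whose largest long clonotype carried this segment. That loop counts once, as does any other of the 137 long clonotypes there, and how many of them lie 1 residue from it is not given. TRBJ1-6 (log2 0.81), TRBJ2-4 (0.58) and TRBJ2-1 (0.41) passed by smaller margins, with adjusted p between 2.67e-08 and 2.85e-07 in edgeR. TRBJ2-1 was not called with TMM normalization (0.08), and TRBJ1-4 (0.26, adjusted p = 0.0229, edgeR) changed sign with TMM (-0.064) and with 17 or more residues (-0.085), was not called with DESeq2 (0.14) and just missed the threshold without trametinib D11 replicate 2 (0.22). TRBJ1-3 did not pass (0.18, adjusted p = 0.218, edgeR).

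Among the ends printed above, TRBJ2-7 and TRBJ1-1 had the shortest such runs, YEQYF and TEVFF with 5 residues, and 4.52% and 4.48% of their clonotypes were long. The 7-residue runs belonged to TRBJ2-2 (NTGQLYF), TRBJ1-6 (YNSPLYF) and TRBJ1-3 (SGNTLYF), of whose clonotypes 27.2%, 21.5% and 15.3% were long. Long loops counted toward these runs. Among other loops alone, the run was carried by 49.4% of TRBJ2-2, 51.0% of TRBJ1-6 and 55.5% of TRBJ1-3 clonotypes. TRBJ2-2 thus fell short there of the share that defines a run, and reached it only with its long loops. The run did not set the order alone: TRBJ2-3 with AETLYF and TRBJ1-2 with NSDYTF both had 6 residues, with 26.9% and 4.46% long.

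**Figure D1:**
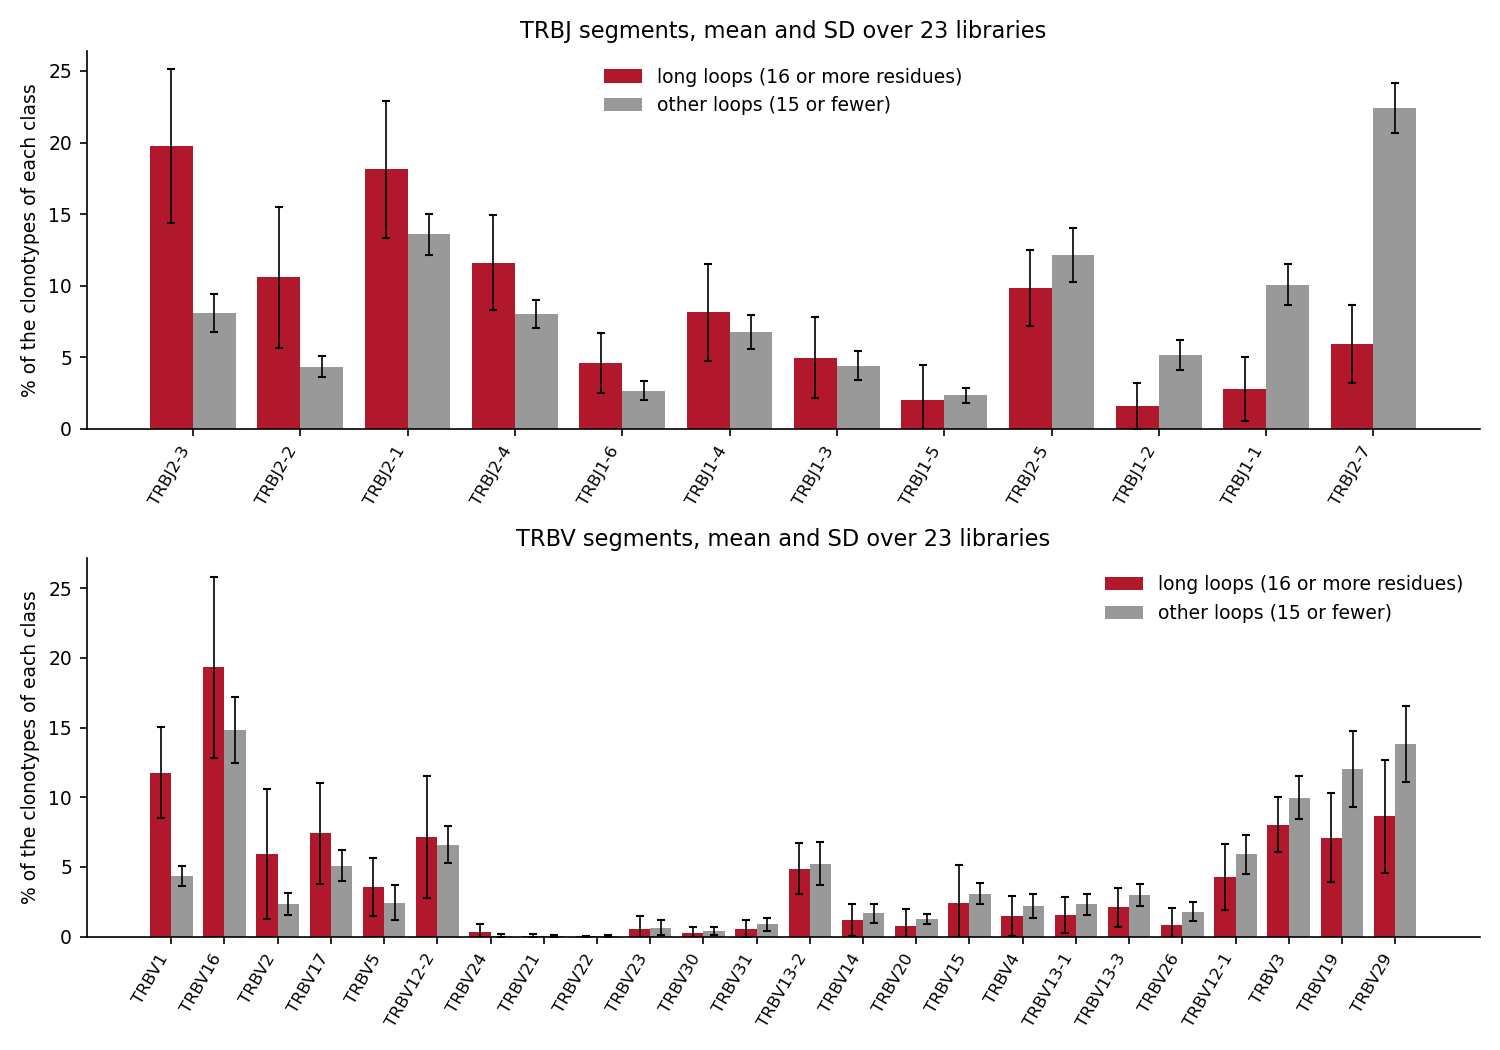
Share of each TRBJ (top) and TRBV (bottom) segment among long clonotypes (red) and other clonotypes (grey), in percent of the clonotypes of each class, with bars for the mean and lines for the SD over 23 libraries. TRBJ2-3 stands at 19.7% against 8.12%, TRBJ2-7 at 5.94% against 22.4% and TRBV1 at 11.8% against 4.37%; lines that would reach below 0 are cut at the axis.

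V segments form the start of the loop, and TRBV1 stood out most. It took 11.8% ± 3.26 of long clonotypes against 4.37% ± 0.731 of other clonotypes (SD, n = 23), with a lowest, median and highest of 6.06%, 11.03% and 18.9% against 3.11%, 4.38% and 5.97%. The ranges did not overlap (log2 1.37 ± 0.09 SE, adjusted p = 3.33e-36, edgeR). Of 13 TRBV segments tested, 11 passed (84.6%), 5 higher in long loops (38.5%) and 6 lower (46.2%); the remaining 11 of 24 did not pass the filter on low numbers, nor did TRBJ1-5.

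After TRBV1, the largest shift was that of TRBV2, with 5.93% ± 4.66 of long clonotypes against 2.31% ± 0.779 of others (log2 1.15, adjusted p = 4.5e-09, edgeR). Its highest long shares were 19.6% in control D4 replicate 2 and 18.5% in control D11 replicate 2. In control D4 replicate 2 it had 11 long clonotypes, among them the most widely listed long loop described below. Several others there differ from that loop at 1 position and were listed in that library alone. The segment tests were not rerun without such variants. TRBV5 (log2 0.70), TRBV16 (0.45) and TRBV17 (0.44) were also higher, and TRBV16 was the commonest V segment of long loops with 19.3% ± 6.51 against 14.8% ± 2.35. Lower in long loops were TRBV19 (log2 -0.65, 7.08% ± 3.19 against 12.04% ± 2.74), TRBV29 (-0.62, 8.64% ± 4.05 against 13.8% ± 2.74), TRBV15 (-0.62), TRBV13-3 (-0.50), TRBV12-1 (-0.37) and TRBV3 (-0.30), with adjusted p between 3.32e-09 and 0.0255 in edgeR. TRBV3 turned to 0.058 with a threshold of 15 residues and was not called with counts under 20 removed (-0.14), and TRBV12-1 was not called at 15 residues (-0.05). TRBV13-2 (-0.08) and TRBV12-2 (-0.03) did not pass.

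Of the tested V segments, TRBV1, TRBV2, TRBV5, TRBV17 and TRBV13-2 shared a start run of 5 residues, and 29.1%, 25.6%, 21.8%, 17.1% and 13.5% of their clonotypes were long. Among untested segments with such a run, long loops made up 15% of 200 TRBV23, 31.7% of 41 TRBV24 and 15.8% of 19 TRBV21 clonotypes. Here too long loops counted toward the run. Among other loops alone, it was carried by 70.7% of TRBV1, 70.4% of TRBV2, 60.6% of TRBV5 and 50% of TRBV21 clonotypes. It fell short of 50% there in TRBV17 (46.8%), TRBV13-2 (48.7%), TRBV23 (48.2%) and TRBV24 (39.3%). TRBV16, TRBV19, TRBV29 and TRBV3 shared the 4 residues CASS, with 18.7%, 9.57%, 9.86% and 11.7% long. TRBV20, an untested segment with the run CGAR, had 4.82% long among 456 clonotypes. TRBV16 with 4 shared residues lay above TRBV17 and TRBV13-2 with 5, so the shares of segments with 4 and 5 shared residues overlapped. Both ends combined gave a wide spread: among 162 V and J pairs with at least 50 clonotypes, TRBV5 with TRBJ2-3 had 54 long loops of 102 (52.9%), TRBV1 with TRBJ2-2 had 63 of 123 (51.2%) and TRBV1 with TRBJ2-3 had 122 of 242 (50.4%). TRBV13-1 with TRBJ1-1 had 0 of 90 and TRBV14 with TRBJ2-5 had 0 of 76. These pairs were picked as extremes and carry no test.

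Most of the extra length lay between the ends. Counting how many residues of a loop matched the shared run of its V and of its J segment, the stretch between them averaged 6.34 ± 0.128 residues in long loops and 4.41 ± 0.0772 in other loops (SD, n = 23). The V match averaged 4.21 and 3.95 residues and the J match 5.78 and 5.23 in long and other loops. This stretch takes in the D segment and added bases, but also any V or J residues beyond the shared runs, and these were not separated. As it is a part of the length itself, it is given as a description.

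The middle of long loops was richer in glycine. Central residues were those from position 5 to the 7th from the end, and they were grouped into 7 kinds. This window still takes in the last residue of a 5-residue V start run and the first of a 7-residue J end run. It holds fewer residues in shorter loops, so such end residues weigh more there. How far segment use shifted the shares was not tested. Glycine made up 26.8% ± 1.66 of central residues in long loops against 24.05% ± 0.872 in other loops (SD, n = 23), a difference of 2.75 percentage points that was positive in 21 of 23 libraries (adjusted p = 7e-05, permutation test with 100000 sign flips over libraries). The lowest, median and highest were 21.9%, 26.9% and 29.6% against 21.5%, 24.3% and 25.1%, and 21 of the 23 long values lay above the highest other value. Both libraries with the opposite sign were controls. The size depended on the setting: over the 5 other settings run it ran from 1.07 to 3.24 points. Glycine passed in each of them (adjusted p up to 0.0185, permutation tests).

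Aromatic residues were higher too (8.21% against 7.35%, 0.854 points, adjusted p = 0.00672, permutation test, higher in 18 of 23). The polar residues serine, threonine, asparagine and glutamine were lower (19.6% ± 1.38 against 21.8% ± 1.15, -2.17 points, adjusted p = 0.000105, permutation test, lower in 19 of 23). Proline (-0.705 points, adjusted p = 0.00369) and basic residues (-1.07 points, adjusted p = 0.0213) were lower in the same permutation tests, but neither call held against other loops of 14 and 15 residues alone (-0.420 and -0.595 points). Proline also missed the threshold with long loops taken from 15 (-0.340) or 17 residues (-0.242). Basic residues missed it from 17 residues (-1.15) and with counts under 20 removed (-0.763), and aromatic residues from 17 residues (0.490). Acidic (0.0847 points, adjusted p = 0.763) and aliphatic residues (0.340 points, adjusted p = 0.466) did not pass in permutation tests.

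**Figure D2:**
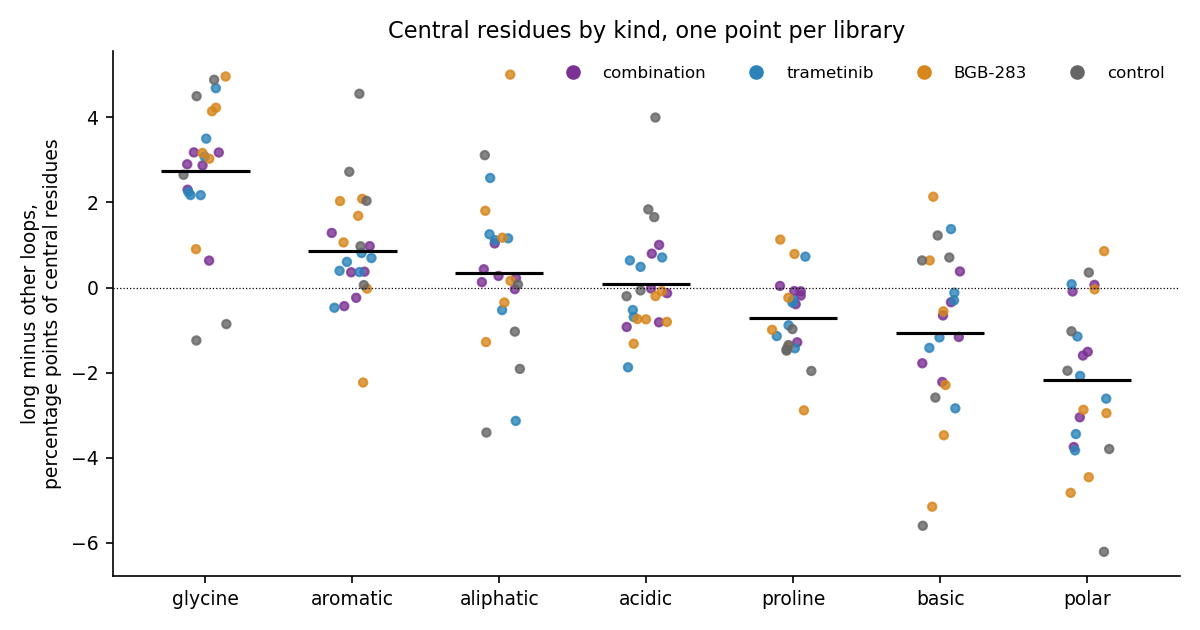
Difference between long and other loops in the share of central residues of each kind, in percentage points, with 1 point for each of 23 libraries coloured by treatment and a bar for the mean. Glycine lies above 0 in 21 libraries and polar residues below 0 in 19, while acidic residues scatter around 0.

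Glycine-rich trimers that the mouse D segments can encode were more frequent in long loops. The germline D segments are short and glycine-rich, and each can be read in 3 frames. DWG, from Dbeta2, was held by 12.98% ± 3.42 of long clonotypes against 4.69% ± 1.04 of others (SD, n = 23), higher in 23 of 23 libraries, and the lowest long value of 7.61% exceeded the highest other value of 6.12% (adjusted p = 2.5e-05, permutation test). GLG, also from Dbeta2, stood at 7.94% against 2.44% (adjusted p = 3.3e-05), GTG, from both D segments, at 9.09% against 5.02% (adjusted p = 0.0002), DRG, from Dbeta1, at 4.99% against 2.41% (adjusted p = 2.5e-05) and GQG, from Dbeta1, at 4.14% against 2.77% (adjusted p = 0.00418), all in permutation tests. GTG reached 24.8% in BGB-283 D11 replicate 3, whose largest long clonotype holds it. Each clonotype counts once in this share, so that loop weighs no more than any other of the 137 long clonotypes there. How many of them lie 1 residue from it is not given. A longer loop has more places for a trimer, and the part of that in these differences was not separated. Against other loops of 14 and 15 residues, GQG no longer passed (0.419 points). With 17 or more residues, DRG (0.543 points) and GQG (1.17 points) did not pass.

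Long loops were seldom listed in more than 1 library. Of 4864 long clonotypes 50 were listed in 2 or more libraries (1.03%), against 1294 of 30204 others (4.28%). Within libraries, 2.97% ± 2.05 of long clonotypes were also listed in another library, against 10.6% ± 2.05 of other clonotypes (SD, n = 23). The lowest, median and highest were 0%, 2.42% and 9.52% for long loops against 7.96%, 10.2% and 15.3% for others, and the long value was the lower in 23 of 23 libraries. The mean difference of -7.62 points had p = 1e-05 in a permutation test of 100000 sign flips, the smallest p that test can give. Libraries that share a clonotype both count it, so the 23 values are not fully independent. The difference was -5.99 to -16.7 points over 7 other ways of counting.

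The decline with length was steady in this range. Clonotypes of 13 residues were listed in 2 or more libraries in 5.72% of cases, those of 14 in 4.43%, of 15 in 2.53%, of 16 in 1.23% and of 17 in 0.582%. None of 264 clonotypes of 18 or more residues was listed in another library. By treatment, the long and other shares were 2.02% ± 0.886 and 8.62% ± 0.528 in combination, 3.52% ± 1.54 and 10.1% ± 1.26 in trametinib, 2.96% ± 0.727 and 11.1% ± 1.23 in BGB-283 libraries (SD, n = 6 each), and 3.46% ± 4.04 and 12.9% ± 2.31 in control libraries (SD, n = 5).

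**Figure D3:**
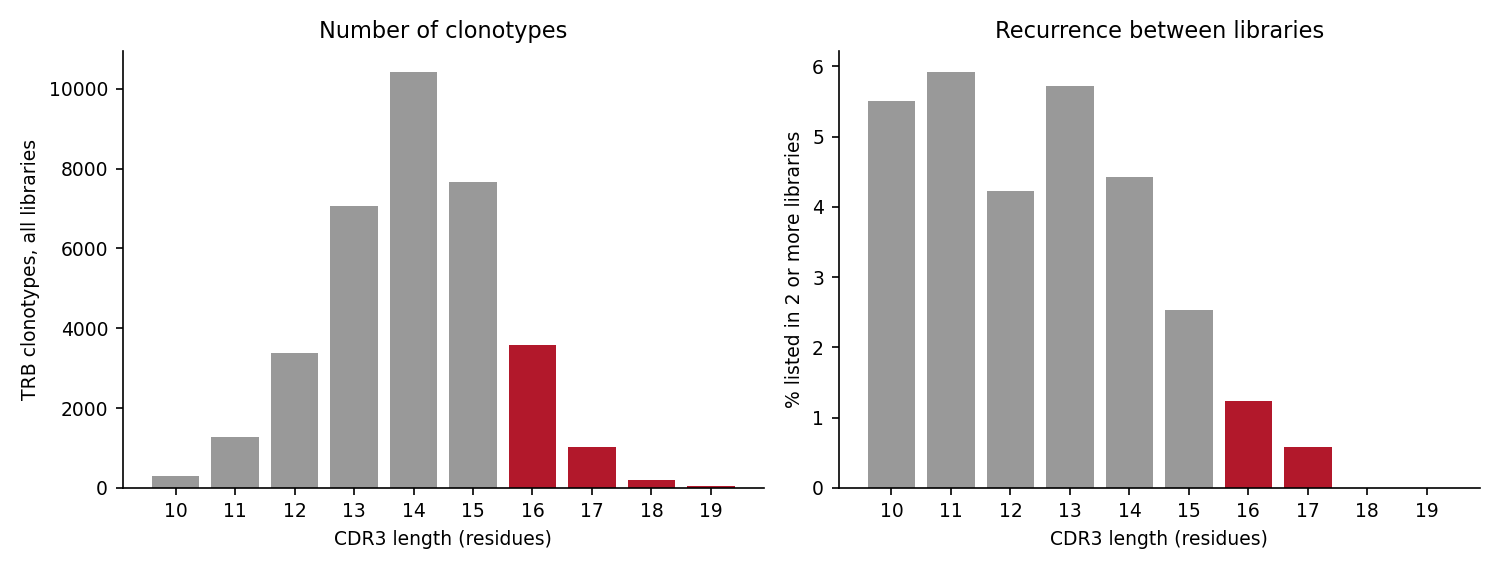
Number of TRB clonotypes (left) and percent of them listed in 2 or more libraries (right) by CDR3 length in residues, with long loops in red and other loops in grey. Recurrence is 2.53% at 15 residues, 1.23% at 16 and 0.582% at 17, and 0 at 18 and 19 residues.

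Among the 50 recurrent long loops, 44 had 16 residues and 6 had 17. They spanned more than 1 treatment in 35 cases and stayed within 1 group of 1 treatment and day in 6. TRBV16 carried 13 of them (26.0%, against 18.8% of all long loops) and TRBJ2-3 carried 16 (32.0%, against 18.8%). The pair of loops listed in the most libraries both joined TRBV2 to TRBJ1-4, both had 16 residues, and differ from each other at position 6, counted from the leading cysteine.

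The first of them was listed in 8 libraries. As a share of TRB counts it stood at 0.102% in combination D11 replicate 2 and at 0.0762% in combination D4 replicate 3, 0.344% in trametinib D11 replicate 3, and 0.0327%, 0.0232% and 0.903% in the BGB-283 libraries D11 replicate 2, D11 replicate 3 and D4 replicate 3. In control D4 it took 0.355% in replicate 1 and 2.93% in replicate 2. The second was listed in 6 libraries, at 0.108% in combination D11 replicate 3, 0.358% in combination D4 replicate 2, 1.82% and 0.366% in trametinib D11 replicates 2 and 3, and 0.547% and 0.0199% in BGB-283 D11 replicates 1 and 3. Every treatment thus listed at least one of these loops, and both were listed together in trametinib D11 replicate 3 and BGB-283 D11 replicate 3.

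A 17-residue loop with TRBV5 and TRBJ2-1 was listed in 4 libraries at 0.295% to 0.906% of TRB counts, none of them a control. Control libraries held the fewest long clonotypes on average, and 2 of 5 listed no long TRBV5 loop at all. A 16-residue loop with TRBV16 and TRBJ2-3 was listed in 4 libraries at 0.0163% to 0.166%. A loop that differs from it at 1 position took 0.00406% of combination D11 replicate 2 and 2.12% of trametinib D4 replicate 3. Loops of 16 residues that joined TRBV16 to TRBJ2-3 and to TRBJ2-4 were listed in 3 libraries each, at 0.00176% to 0.127% and at 0.00183% to 0.0875%. A 16-residue loop with TRBV17 and TRBJ2-5 took 1.07% of BGB-283 D4 replicate 2 and 0.0486% of control D4 replicate 2. Of all long loops, 4 were listed in 4 or more libraries.

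Long clonotypes were smaller on average than the other clonotypes of their library. The log2 ratio of mean counts per clonotype, long over other, averaged -0.49 ± 0.78 (SD, n = 23), which is 0.712-fold, and was below 0 in 16 of 23 libraries (p = 0.00669, permutation test with 100000 sign flips). It was below 0 and passed the test under each of the 7 other settings run, from -1.01 with 17 or more residues to -0.21 for the mean of log2 counts. By treatment the ratio averaged -0.92 ± 1.05 with combination, -0.35 ± 0.46 with trametinib and -0.42 ± 0.71 with BGB-283 (SD, n = 6 each) and -0.22 ± 0.83 in control libraries (SD, n = 5), and no contrast passed (adjusted p from 0.47 to 0.6 over 6 contrasts, exact permutation tests within days or treatments). The median counts per clonotype, averaged over libraries, were 15.3 for long and 16.2 for other loops with combination, 23.3 and 29.5 with trametinib, 22.25 and 27.3 with BGB-283, and 32.5 and 42.0 in control libraries. Small size was not particular to loops of 16 or more residues. Over all libraries, mean counts per listed clonotype were 71.5 at 16 residues and 78.6 at 17, and 70.5 at 15 just outside the threshold. They were 87.9 at 14, 134.5 at 13, 128.5 at 12 and 65.6 at 11 residues. Clonotypes at 1% or more of TRB counts numbered 24 long and 250 other, so 8.76% of these large clonotypes were long, against 13.9% of all TRB clonotypes. That difference was not tested.

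**Figure D4:**
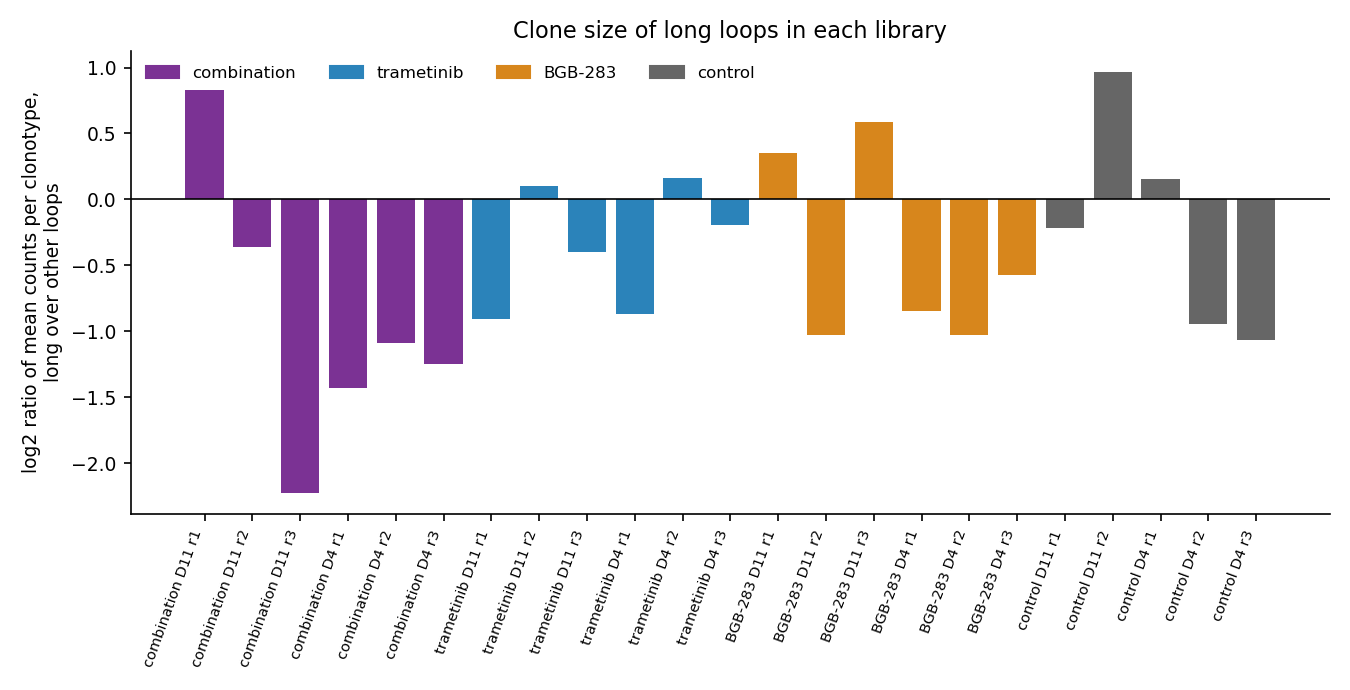
Log2 ratio of mean counts per clonotype, long over other loops, in each of 23 libraries coloured by treatment (r, replicate). The ratio is below 0 in 16 libraries, and the 7 above 0 include combination D11 replicate 1 at 0.83 and control D11 replicate 2 at 0.97.

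The 5 largest long clonotypes each lay in 1 of the 7 libraries above 0. A 17-residue loop with TRBV2 and TRBJ2-1 took 14.6% of TRB counts and 51.7% of long counts in control D11 replicate 2. One of 16 residues with TRBV29 and TRBJ2-4 took 13.4% in combination D11 replicate 1. In BGB-283 D11 a 17-residue loop with TRBV16 and TRBJ2-2 took 12.6% of replicate 3 and a 16-residue loop with TRBV29 and TRBJ1-5 took 11.8% of replicate 1. A 16-residue loop with TRBV15 and TRBJ1-1 took 8.02% in trametinib D4 replicate 2. Each of these loops was listed in that library alone.

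The other 5 of the 10 largest all had 16 residues and were also listed in 1 library each. They were a TRBV5 and TRBJ2-3 loop at 5.88% in combination D11 replicate 2, a TRBV12-2 and TRBJ2-3 loop at 5.61% in control D4 replicate 1 and a TRBV17 and TRBJ2-1 loop at 4.11% in control D11 replicate 1. A TRBV19 and TRBJ2-7 loop took 3.81% in combination D11 replicate 1 and a TRBV26 and TRBJ1-3 loop 3.45% in BGB-283 D11 replicate 3. The 10 largest long loops used 10 different V and J pairs, and 8 of them were found at D11 and 2 at D4. This split depended on how many were taken: of the 24 long clonotypes at 1% or more of TRB counts, 13 were in the 11 D11 libraries and 11 in the 12 D4 libraries. Other clonotypes of that size numbered 92 in the D11 and 158 in the D4 libraries, so long loops were a larger part of the large clonotypes at D11. That difference was not tested. At the other end, the longest loops were rare: one of 33 residues with TRBV17 and TRBJ1-5 had 33 counts in combination D11 replicate 2, a loop that differs from it at 1 position had 4 counts there, and one of 32 residues with TRBV29 and TRBJ2-3 had 19 counts in combination D4 replicate 3. The 12 loops of 20 or more residues held 326 counts in all.

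The share of clonotypes that were long did not differ detectably between treatments. It averaged 13.4% ± 1.19 with combination, 13.7% ± 1.49 with trametinib and 13.4% ± 0.998 with BGB-283 (SD, n = 6 each) and 14.2% ± 2.78 in control libraries (SD, n = 5). The lowest, median and highest were 12.2%, 13.2% and 15.3% in combination, 12.01%, 13.8% and 15.7% in trametinib, 12.7%, 13.1% and 15.4% in BGB-283, and 10.2%, 13.7% and 16.9% in control libraries, so every treated range lay within the control range. Against control the difference was -1.24 points for combination, -0.908 for trametinib and -1.21 for BGB-283 (adjusted p = 0.52, 0.608 and 0.52 with adjustment over 6 contrasts, exact permutation tests within days). These are averages over days with opposite signs. In the same order, the differences were 0.424, 0.607 and 0.602 points at D4. At D11, with 2 control libraries, they were -2.90, -2.42 and -3.03 points. Combination minus trametinib was -0.332 points and combination minus BGB-283 -0.0265 points, and neither passed (adjusted p = 0.744 and 0.96, exact permutation tests within days). The Wilson 95% interval of a library was widest in control D4 replicate 1, from 6.76% to 15.1%.

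Averaged over treatments, long loops were a larger share of clonotypes at D11, but this call ended under several alternatives. The share was 15.3%, 13.8% and 12.7% at D11 against 12.4%, 12.2% and 13.99% at D4 in combination libraries, and 13.2%, 15.7% and 14.3% against 14.9%, 12.01% and 12.2% in trametinib libraries. In BGB-283 libraries it was 15.4%, 12.9% and 13.2% at D11 against 13.4%, 12.7% and 12.99% at D4, and in control libraries 16.9% and 16.7% against 10.2%, 13.7% and 13.4%. Only control libraries showed no overlap between days. Averaged over treatments, the share was higher by 1.91 points at D11 (14.6% ± 1.53, n = 11, against 12.8% ± 1.195, n = 12; p = 0.00598, adjusted p = 0.0359, exact permutation test within treatments), with 10 of 11 D11 libraries above the D4 median.

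Per treatment the difference between days was 1.08 points in combination, 1.38 in trametinib, 0.778 in BGB-283 and 4.41 in control libraries. Within 1 treatment the smallest p for 3 against 3 libraries is 0.1, and the 5 contrasts between treatments did not differ between days after adjustment (smallest adjusted p = 0.242, exact permutation test). The share expected from each library's own V and J pairs differed by 0.136 points between days (p = 0.544, exact permutation test), and the observed minus expected share by 1.78 points (adjusted p = 0.0459, exact permutation test). The call ended without near copies, which are clonotypes 1 residue from a clonotype at least 10 times larger with the same segments (1.32 points, adjusted p = 0.283), with counts under 20 removed (1.88, adjusted p = 0.156) and with a threshold of 15 (2.48) or 17 residues (1.10). It also ended without any 1 of the 5 control libraries, or of combination D4 replicates 1 and 2, combination D11 replicate 1, trametinib D4 replicates 2 and 3, trametinib D11 replicates 2 and 3, BGB-283 D4 replicate 2 and BGB-283 D11 replicate 1 (1.63 to 2.07 points).

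**Figure D5:**
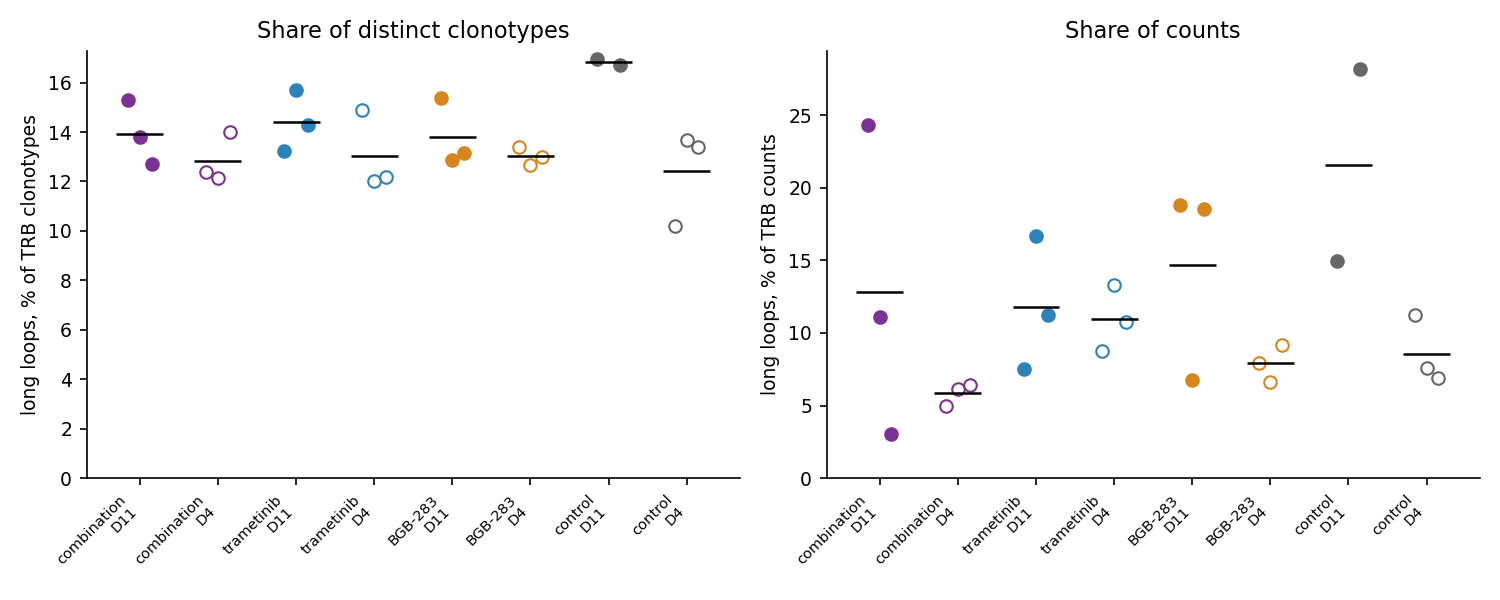
Long loops as percent of TRB clonotypes (left) and of TRB counts (right) in each library, by treatment and day, with filled points for D11, open points for D4 and a bar for the group mean. Control D11 libraries lie at 16.9% and 16.7% of clonotypes against 10.2% to 13.7% in control D4, and the shares of counts at D11 run from 3.02% to 28.2%.

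By counts the D11 difference was larger and more uneven. Long loops took 24.3%, 11.1% and 3.02% of TRB counts at D11 against 4.996%, 6.11% and 6.42% at D4 in combination libraries, and 7.53%, 16.7% and 11.2% against 8.75%, 13.3% and 10.8% in trametinib libraries. They took 18.8%, 6.75% and 18.5% at D11 against 7.92%, 6.64% and 9.13% at D4 in BGB-283 libraries, and 14.9% and 28.2% against 11.2%, 7.60% and 6.90% in control libraries. In every treatment at least 1 D11 library exceeded all D4 libraries, but the lowest value of all was also a D11 library. The averages were 14.6% ± 7.66 (n = 11) at D11 and 8.31% ± 2.43 (n = 12) at D4, a difference of 6.91 points (p = 0.00739, adjusted p = 0.0443, exact permutation test within treatments).

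Per treatment this was 6.97 points in combination, 0.874 in trametinib, 6.81 in BGB-283 and 12.99 in control libraries. Without the largest long clonotype of each library the difference was 3.34 points (adjusted p = 0.114), and without all clonotypes at 1% or more it was 1.67 points (adjusted p = 0.329, exact permutation tests), so the call did not hold. It held when combination D11 replicate 3, trametinib D4 replicate 2, trametinib D11 replicate 1 or BGB-283 D11 replicate 2 was left out, and ended when any other library was left out (5.26 to 8.57 points). By treatment, the share of counts was 9.32% ± 7.81 with combination, 11.4% ± 3.28 with trametinib and 11.3% ± 5.79 with BGB-283 and 13.8% ± 8.67 in control libraries, and no treatment contrast passed (adjusted p = 0.61 for combination against control, exact permutation test).

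Within long loops, few V or J segments changed in share of TRB counts between treatments or days. The edgeR test covered each segment's long and other loops as separate features in 8 groups. For combination against control, long loops with TRBV2 were the 1 feature of 47 that passed (2.13%). They took 0.322% ± 0.201 of TRB counts in combination libraries, from 0.124% to 0.559% with a median of 0.278%, against 0.404%, 3.55%, 0.0547%, 0.859% and 15.3% in control libraries (log2 -3.59 ± 0.97 SE, adjusted p = 0.0453, edgeR). The control values spanned the combination range, and the 15.3% was that of control D11 replicate 2, in which the loop named above took 14.6%. The call ended with TMM, without control D4 replicate 2 or control D11 replicate 2, without any 1 of the 6 combination libraries, and without trametinib D4 replicate 1, trametinib D11 replicates 1, 2 or 3 or either of 2 BGB-283 libraries, D4 replicate 3 and D11 replicate 2, each with 0 calls. Next by unadjusted p were TRBV31 and TRBV3, both at adjusted p = 0.259 in edgeR.

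For D11 against D4, long loops with TRBJ2-7 were the 1 feature of 24 that passed (4.17%). They took 0.873% ± 1.24 of TRB counts at D11 (lowest 0.172%, median 0.348%, highest 4.47%) against 0.221% ± 0.166 at D4 (0%, 0.251% and 0.447%; log2 2.32 ± 0.70 SE, adjusted p = 0.0493, edgeR). The highest value was that of combination D11 replicate 1, where the TRBV19 loop named above took 3.81%, and the ranges of the days overlapped. The call ended with TMM, without both shallowest control libraries, and without any 1 of 12 libraries: combination D4 replicates 1, 2 and 3, combination D11 replicate 1, trametinib D4 replicates 1, 2 and 3, trametinib D11 replicates 2 and 3, BGB-283 D4 replicate 2, control D4 replicate 1 and control D11 replicate 1. TRBJ2-2 and TRBJ2-1 came next (adjusted p = 0.0548 each, edgeR). Among TRBV segments of long loops 0 of 47 features passed for D11 against D4, 2 long features had an unadjusted p under 0.05, and TRBV29 (adjusted p = 0.177), TRBV26 (0.254) and TRBV13-1 (0.513) came first in edgeR; DESeq2 called 1.

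No other contrast had a call in edgeR. For BGB-283 against control, TRBJ1-5 and TRBJ2-1 of long loops came closest (adjusted p = 0.0609 each), ahead of TRBJ2-2 (0.249), and among V segments TRBV2 and TRBV31 (0.221 each) and TRBV23 (0.264). TRBJ1-5 long loops were listed at 0 in 2 of 6 BGB-283 and 2 of 5 control libraries, and BGB-283 D11 replicate 1 held 11.98%, nearly all of it the 16-residue loop with TRBV29 at 11.8%. For combination against control, TRBJ2-1 (0.0561), TRBJ2-7 (0.0788) and TRBJ1-4 (0.471) came first among J segments. For trametinib against control these were TRBJ2-7 (0.427), TRBJ2-1 and TRBJ1-5 (0.638 each), and TRBV23, TRBV31 and TRBV20 (0.213 each).

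For combination against trametinib, TRBJ1-1, TRBJ2-1 and TRBJ2-5 (adjusted p = 0.702 each) and TRBV3, TRBV29 and TRBV15 (0.516 each) came first, and for combination against BGB-283 TRBJ1-5, TRBJ2-2 and TRBJ2-4 (0.378 each), TRBV16 (0.748), TRBV26 and TRBV24 (0.988 each), all in edgeR. The numbers of long features with an unadjusted p under 0.05 in these contrasts were 4 V and 1 J for trametinib against control, 5 V and 3 J for BGB-283 against control, 0 V and 1 J for combination against trametinib and 1 V and 2 J for combination against BGB-283. DESeq2 called 3 V and 1 J long features for trametinib against control and 4 V and 4 J for BGB-283 against control.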

How the data were processed

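Per the labels' protocols, total RNA was made into TCR libraries by a QIAseq Immune Repertoire kit. The authors deposited 1 table of unscaled counts, with a row for each chain, V and J segment and CDR3 and a column for each library; that the values are counts was read from the values. GRCh38, a human assembly, is the build in the submitters' processing notes; how reads were aligned, called and filtered is not given in the sources used. No value lies below 3, and values pile up at 20, a pattern that sums of reads per identifier could give, so the number of molecules was also estimated as the count over 20, rounded up. No per-library column was left unused, and single loops are given by segments and length.

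Of 35571 TRB entries, 182 with an unresolved residue and 321 not starting with cysteine were left out; 66 of these had 16 or more residues. The members, lists and tests were chosen with earlier results of these data known. No pair of libraries held identical values, and at most 4.37% of the smaller library's TRB clonotypes were shared.

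Treatment contrasts and D11 against D4 used exact two-sided permutation tests within days or treatments, with Benjamini-Hochberg adjustment over 6 contrasts and a threshold of 0.05. Long and other loops of the same library were compared by 100000 random sign flips over 23 libraries. Segments were tested with edgeR 4.0.16 (R 4.3.3), quasi-likelihood, TMM off, filterByExpr, on numbers of distinct clonotypes (long against other) or on counts (by treatment and day, 8 groups), with DESeq2 1.42.0 as an alternative. Tests were also run on simulated data, for edgeR with less spread between libraries than here and without D11 against D4. Those runs do not show how often calls are wrong in these data. Wilson 95% intervals cover counting error only. Libraries were not treated as paired by replicate number, since in 5 of 28 group pairs alone did all libraries of 1 number correlate above 0.1 (range -0.403 to 0.556, mean 0.0415). Alternatives changed the count floor, the length threshold, depth, near copies, normalization and the libraries included.

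Named segments passed the threshold (up to 10 a direction), with the 3 with the smallest unadjusted p where fewer than 3 passed. Clonotypes named are the 10 with the largest share of a library, the 8 listed in the most libraries and the 3 longest.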

Additional observations from a re-analysis of the deposited data

Results flagged for a closer look

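In BGB-283 D11 replicate 1, 15.4% of TRB clonotypes were long, which lay far from the other 5 BGB-283 libraries (gap over range 0.730, n = 6). In trametinib D4 replicate 2 the largest long clonotype took 8.02% of TRB counts, far from the other 5 trametinib libraries (gap over range 0.787, n = 6). Chance flags about 1 in 20 groups, and 20 groups were tested. TRB entries of 16 or more residues that were left out, because a residue was unresolved or the first was not cysteine, reached 0.0814% in combination D11 replicate 2, as a share of TRB counts, against at most 0.0643% in a control library.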

How the results depend on the processing

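The lower recurrence and smaller clone size of long loops passed the threshold under each alternative run, as did the higher glycine and lower polar share and the GTG, GLG and DWG trimers. Leaving out 1 library at a time moved recurrence from -7.75 to -7.37 points and the log2 clone size from -0.56 to -0.41. The higher long share of clonotypes at D11 missed the threshold with counts under 20 removed (1.88 points), from 15 (2.48) or 17 residues (1.10), without near copies (1.32) and without both shallowest control libraries (1.60), and ran from 1.63 to 2.15 with 1 library left out. That of counts missed it from 15 (10.2) or 17 residues (3.59), as log2 odds (0.82), without the largest long clonotype (3.34), without clonotypes at 1% or more (1.67) and without both shallowest control libraries (8.90), and ran from 5.26 to 8.57 with 1 library left out. With a replicate block neither day difference passed (1.78 and 6.21 points), and the calls on long TRBV2 and TRBJ2-7 features numbered 0 and 0; the block changed no other call. Combination minus BGB-283 in share of clonotypes, which never passed, turned positive with counts under 20 removed (0.294), from 15 (1.35) or 17 residues (0.141), with entries not starting with cysteine (0.0446), without near copies (0.658) and as observed minus expected (0.204), and ran from -0.366 to 0.369 with 1 library left out. Combination minus trametinib did so with counts under 20 removed (0.0845), from 17 residues (0.0225) and without near copies (0.149), and ran from -0.672 to 0.135; by counts these differences ran from -4.85 to 0.471 and from -4.93 to 0.399. Acidic residues turned negative with counts under 20 removed (-0.209) and from 15 (-0.717) or 17 residues (-0.00980) and passed as higher against loops of 14 and 15 residues (0.819); aliphatic residues turned negative from 15 residues (-0.796). Proline (-0.340 from 15 residues, -0.242 from 17, -0.420 against 14 and 15), aromatic (0.490 from 17), basic (-0.763 with counts under 20 removed, -1.15 from 17, -0.595 against 14 and 15), GQG (1.17 from 17, 0.419 against 14 and 15) and DRG (0.543 from 17) missed the threshold there. TRBV3 turned to 0.058 from 15 residues, and TRBJ1-4 to -0.064 with TMM and -0.085 from 17 residues. TRBV calls between long and other loops numbered 11, and 18 with DESeq2, 17 without the filter and 6 with counts under 20 removed; TRBJ calls numbered 10, and 6 from 17 residues. In contrasts of V segments, DESeq2 called 4 long features for combination, 3 for trametinib and 4 for BGB-283 against control and 1 for D11, and TMM 0 for combination; of J segments, DESeq2 called 2, 1, 4 and 3 in the same order and TMM 0 for D11. Counting each clonotype once gave 1 V and 1 J call for BGB-283, and leaving out both shallowest control libraries gave 1 J call each for combination and BGB-283 and 0 for D11. Leaving out 1 library gave 0 to 2 V calls and 0 to 2 J calls for combination, 0 to 3 J calls for BGB-283 and 0 to 1 V and 0 to 3 J calls for D11. The cause of these changes was not tested, though fewer libraries leave fewer permutations. Depth limits control libraries most, with as few as 21 long clonotypes.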

Other observations

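Among alpha-chain loops of the same lengths, the difference between days had the same direction and did not pass the test. Of 28619 TRA clonotypes, 2288 (7.99%) had a CDR3 of 16 or more residues. Their share of TRA clonotypes averaged 7.81% ± 1.66 at D11 (n = 11) and 6.95% ± 1.47 at D4 (n = 12), a difference of 1.05 points over treatments that did not pass (p = 0.214, exact permutation test within treatments). Their share of TRA counts was 6.06% ± 3.28 at D11 and 5.58% ± 3.14 at D4 (0.688 points, p = 0.643, exact permutation test). No treatment contrast of TRA passed either. Whether the TRB and TRA differences between days differ from each other was not tested.

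The share of long TRB loops expected from the V and J pairs of each library did not differ between treatments after adjustment. The expected share was 13.6% ± 0.269 with combination, 13.8% ± 0.365 with trametinib and 13.9% ± 0.308 with BGB-283 (SD, n = 6 each) and 14.5% ± 0.836 in control libraries (SD, n = 5). Against control the difference was -0.962 points for combination (p = 0.045), -0.778 for trametinib (p = 0.08) and -0.732 for BGB-283 (p = 0.1), each with adjusted p = 0.2 over 6 contrasts in exact permutation tests.

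Around the most widely listed long loop, which joined TRBV2 to TRBJ1-4, 11 other TRB clonotypes with the same V and J segments differed from it at 1 position, and 1 of these was listed in 2 or more libraries. The rest were listed in 1 library each, always one that also listed the main loop. They took 0.00317% to 0.0495% of TRB counts there, against 0.344% to 2.93% for the main loop in those libraries. Whether they are separate clonotypes was not tested.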
